A study of Mus musculus with 14 samples.

Results

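Wnt pathway genes were read from bulk RNA-Seq of the mouse esophagus, in which samples labeled epithelium and samples labeled stroma were sequenced. The paper describes pulling the muscle layer off with forceps, which leaves an epithelium-enriched mucosal layer and not epithelium alone. The set holds every gene of the count files whose symbol names a Wnt ligand, a Frizzled or LRP receptor, an R-spondin or its LGR receptor, a secreted inhibitor (Dkk, Sfrp, Wif1 or Notum), a feedback inhibitor (Axin2, Nkd1, Nkd2, Rnf43 or Znrf3) or a TCF/LEF transcription factor. This gave 57 of the 55291 symbols, of which 19 are ligands, 12 receptors, 10 secreted inhibitors, 7 R-spondins and LGR receptors, 5 feedback inhibitors and 4 TCF/LEF factors. The 14 samples came from 9 C57BL/6 mice with no stated transgene or treatment. Epithelium was sequenced from 5 aged mice (O1, O2, O3, OF5 and OM8, 18 months or older) and 4 young mice (Y1, Y3, YF5 and YM4, up to 4 months old). Stroma, the tissue separated from that layer, was available from O1, O2 and O3 among the aged mice (n = 3) and from Y1 and Y3 among the young (n = 2). Each sample is from 1 mouse, and the mouse is the replicate.

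Wnt ligands are secreted lipid-modified glycoproteins that bind a Frizzled receptor together with the co-receptor LRP5 or LRP6. Binding stops the destruction complex of APC, AXIN, GSK3 and CK1 from marking β-catenin for degradation, so that β-catenin enters the nucleus and acts with TCF/LEF factors on target genes such as Axin2. R-spondins bind LGR receptors and keep the ligases RNF43 and ZNRF3 from removing Frizzled from the cell surface, while SFRP, WIF1 and DKK proteins and the lipase NOTUM act against the ligands or the co-receptors. Some ligands, Wnt5a and Wnt11 among them, are better known for β-catenin-independent signals through Frizzled, ROR and planar polarity proteins. In squamous epithelia such as skin and esophagus the pathway is known for its role in the basal cell layer, where epithelial cells divide.

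The libraries were not equally deep. For the 5 mice sampled in both layers, the 57 genes held 14240 to 20098 counts in epithelium and 7003 to 11753 in stroma. OF5, OM8, YF5 and YM4, sampled for epithelium alone, had 1049 to 1923, and in these one ribosomal RNA locus took 63.9% to 73.9% of all counts. Levels are given as normalized counts (CPM on the TMM-adjusted library size), and 3 counts, taken as the floor, were worth 0.704 to 1.24 normalized counts in those 4 libraries and 0.0868 to 0.174 in the other 10. The labels of the layers were checked against marker genes. The summed level of 9 keratinocyte markers ran from 16839 to 53664 normalized counts in epithelium and from 48.0 to 439 in stroma, and that of 10 skeletal muscle markers from 163 to 1776 in epithelium and from 40438 to 73826 in stroma. The epithelial samples were not free of connective tissue RNA. The 6 fibroblast markers summed to 279 to 630 in epithelium and 413 to 1026 in stroma, and 3 of them, Col1a1, Col1a2 and Lum, did not pass the test between the layers. The 5 smooth muscle markers summed to 332 to 831 in epithelium and 301 to 2042 in stroma, with 3 not passing. All 5 endothelial markers, 4 adipocyte markers and 5 tested glial and neuronal markers were higher in stroma. The part of these cells in the differences given next was not tested, and in bulk tissue fewer cells of a type cannot be told apart from less RNA per cell.

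Epithelium and stroma were compared to assign each Wnt gene to a layer. Between the layers, 29 of 44 tested Wnt genes differed, 13 higher in epithelium and 16 higher in stroma (edgeR quasi-likelihood test over all 14 samples, adjusted p-value under 0.05). Across all 16791 genes tested, 56.2% differed, 26.1% being higher in epithelium and 30.1% higher in stroma, so the 65.9% of Wnt genes is read against that background. Unadjusted p-values under 0.05 were found for 32 Wnt genes and 60.8% of all genes. The median log2 fold change was -0.24 over the tested Wnt genes and -0.05 over all genes, where a positive value is higher in epithelium. In 9 Wnt genes every epithelial sample lay above every stromal sample and in 8 the reverse held, against 14.4% and 16.9% of all genes tested. The 8 include Fzd9, whose epithelial values lay near the floor. Of the 19 ligands, 4 were higher in epithelium, 5 were higher in stroma, 3 did not pass and 7 were too low to be tested. Of the 12 receptors, 4 were higher in epithelium, 5 in stroma and 3 did not pass. When the 4 shallow libraries were left out and the 5 remaining mice compared, 11 genes were higher in epithelium and 13 in stroma, and with the mouse as a block in that fit 13 and 11. Values with the mouse as a block refer to these 5 mice. The 2 samples of 1 mouse were otherwise treated as separate samples.

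**Figure D1:**
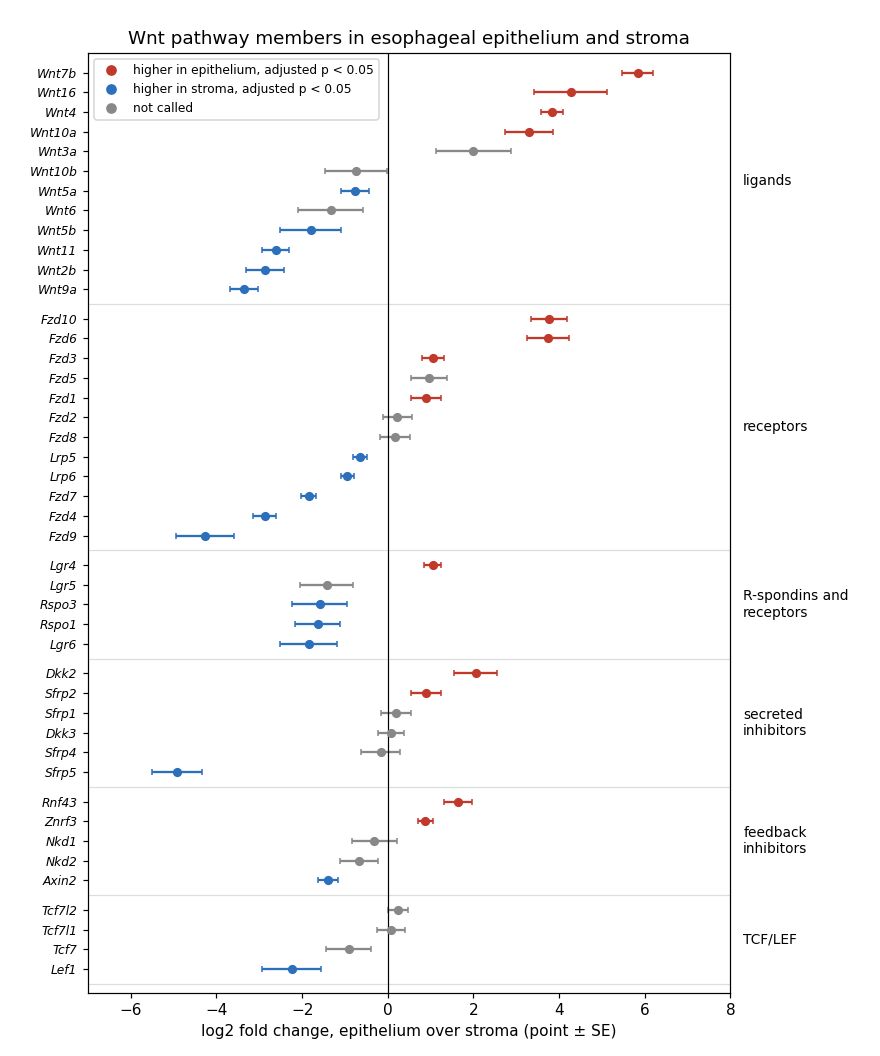
Log2 fold change of each of the 44 tested Wnt genes between esophageal epithelium (9 samples) and stroma (5 samples), grouped by role, with the standard error as a bar. Red points passed the test as higher in epithelium and blue points as higher in stroma, and each of the roles other than the TCF/LEF factors holds genes of both colors.

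The epithelium was marked by 2 abundant ligands, Wnt4 and Wnt7b. Wnt4, a ligand best known from kidney and reproductive tract development, lies on chromosome 4 (137277489 to 137299726, plus strand, GRCm38). Its normalized count had a median of 137 in epithelium (99.2 to 164, n = 9) and was 6.68, 13.3, 5.22, 11.9 and 9.26 in the stroma of O1, O2, O3, Y1 and Y3. Every epithelial sample lay above every stromal one, at a log2 fold change of 3.83 (SE 0.25, adjusted p = 6.97e-11, edgeR). Wnt7b, a ligand made by several lining epithelia including those of the lung and kidney collecting duct, lies on chromosome 15 (85535437 to 85582473, minus strand). Its median was 88.8 in epithelium (52.8 to 112), and it was 1.51, 2.50, 2.32, 0.616 and 0.628 in the same order of stromal samples. The layers did not overlap, and the log2 fold change of 5.83 (SE 0.35, adjusted p = 3.26e-11) was the largest among the 44 tested Wnt genes in either direction. Of its exon length, 6.61% also belongs to an antisense gene, and the sources used here do not say whether strand was used in counting.

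Wnt10a and Wnt16 made up the rest of the ligands called in epithelium. Wnt10a, which is mutated in ectodermal dysplasias of teeth, hair and skin, had a median of 8.71 normalized counts in epithelium (2.07 to 17.2) and 0, 1.76, 1.37, 0.719 and 0.824 in stroma. All epithelial samples exceeded all stromal ones (log2 fold change 3.30, SE 0.55, adjusted p = 5.33e-05, edgeR). Wnt16, a ligand known from bone and from skin keratinocytes, was low, with a median of 1.66 in epithelium (0.564 to 3.45) and no read in the stroma of O1, O2 and O3, beside 0.308 and 0.157 in Y1 and Y3. The layers did not overlap, and the log2 fold change was 4.27 (SE 0.86, adjusted p = 2.64e-04), rising to 5.29 without the stroma of Y1. Wnt3a, the ligand most used to start β-catenin signaling in culture, had a median of 1.54 in epithelium (0.235 to 3.79) and 0.154 in stroma (0 to 0.987). It did not pass the test (log2 fold change 1.9996, SE 0.87, adjusted p = 0.0570), but passed with the mouse as a block (3.19, adjusted p = 0.0465) and when O1 stroma, Y3 stroma or OM8 epithelium was left out.

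The stroma expressed a wider mix of ligands at lower levels. Wnt9a, known from joint formation, lies on chromosome 11 (59306928 to 59333552, plus strand). It had a median of 0.684 normalized counts in epithelium (0 to 1.03) and was 4.94, 9.82, 6.74, 6.88 and 7.57 in the stroma of O1, O2, O3, Y1 and Y3. The layers did not overlap, with a log2 fold change of -3.36 (SE 0.33, adjusted p = 2.75e-08, edgeR). Wnt11, a ligand of convergent extension movements, had a median of 0.825 in epithelium (0.686 to 1.72) and 3.66, 8.39, 5.41, 5.34 and 4.20 in stroma, again without overlap. This gave a log2 fold change of -2.62 (SE 0.32, adjusted p = 6.18e-07). Wnt2b, a mesenchymal ligand of developing lung and gut, had a median of 1.11 in epithelium (0.452 to 3.52) and 3.95, 6.91, 3.05, 10.1 and 18.8 in stroma. The difference was -2.86 on the log2 scale (SE 0.45, adjusted p = 1.62e-05), and only the epithelium of OM8 reached into the range of the stroma.

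Wnt5b and Wnt5a, ligands of planar polarity and cell movement, passed less firmly. Wnt5b had a median of 0.345 normalized counts in epithelium (0 to 0.684) and 2.15, 0.0409, 1.52, 1.49 and 1.18 in stroma, so that O2 stroma lay among the epithelial values. The test gave -1.80 on the log2 scale (SE 0.70, adjusted p = 0.0349, edgeR) and, with the mouse as a block, -1.19 (adjusted p = 0.356). It also lost the call when any of O1 stroma, O3 stroma, Y1 stroma, O3 epithelium or Y1 epithelium was left out, at adjusted p-values of 0.0518 to 0.0859. Wnt5a overlapped between the layers, at 3.67 to 7.12 in epithelium and 2.50 to 19.6 in stroma. For Wnt5a the log2 fold change was -0.78 (SE 0.33, adjusted p = 0.0496) and -0.47 with the mouse as a block (adjusted p = 0.410), and 11 of the 14 single-sample omissions ended the call, each except those of O1 epithelium, O1 stroma and O2 stroma. Without O3 stroma, where Wnt5a was highest, the value was -0.31. Wnt6 and Wnt10b, ligands of skin and mammary epithelium, did not pass, at log2 fold changes of -1.34 (SE 0.77) and -0.75 (SE 0.73). Wnt6 passed when O3 stroma was left out (-1.63, adjusted p = 0.0244) and was at 0.0049 with the mouse as a block (adjusted p = 0.992).

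**Figure D2:**
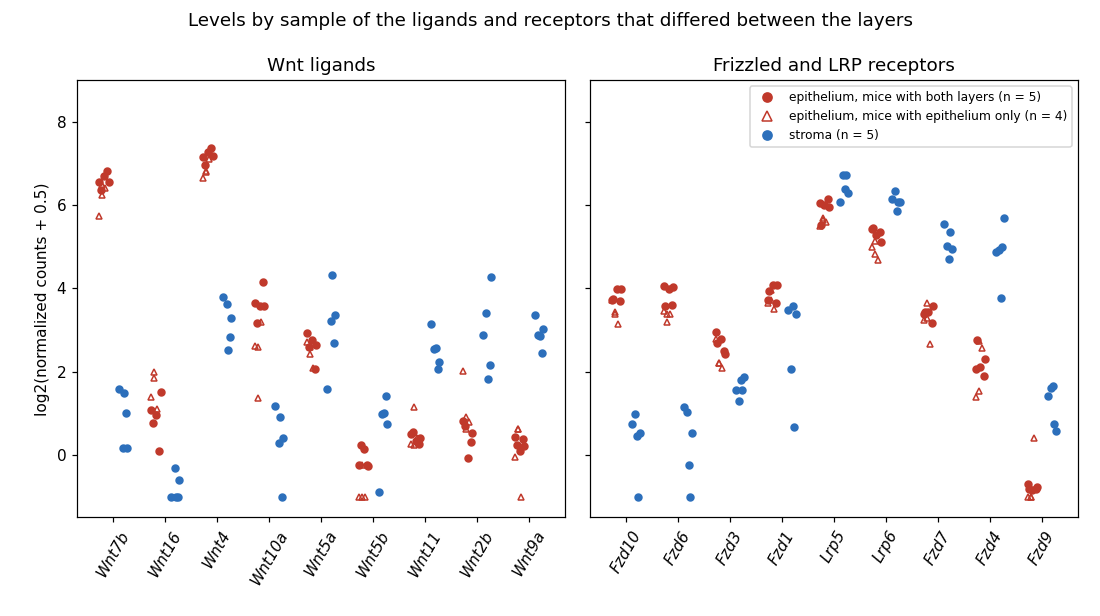
Level of each ligand and receptor that passed the test, as log2 of normalized counts plus 0.5, with 1 point per sample (red circles, epithelium of mice with both layers; open red triangles, epithelium of mice with epithelium only; blue, stroma). Wnt7b, Wnt16, Wnt4, Wnt10a, Fzd10, Fzd6 and Fzd3 are separated with epithelium above, and Wnt9a, Wnt11, Lrp6, Fzd7, Fzd4 and Fzd9 with stroma above. The separation of Fzd9 is not resolved, because the floor of YF5 epithelium lies above O1 and Y3 stroma.

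Set against each other per kilobase of exon, the ligands of the epithelium were dominated by the same genes in all 9 samples. Wnt4 had 31.5 ± 5.21 normalized counts per kilobase (SD, n = 9) and Wnt7b 17.8 ± 3.48, followed by Wnt10a at 3.71 ± 1.81, and these levels did not overlap. Wnt4 and Wnt7b together gave 87.8% ± 1.46 of the summed ligand level in epithelium (85.9% to 90.5%) and 19.3% ± 4.20 in stroma (14.1% to 24.7%, n = 5). In stroma Wnt4, Wnt9a and Wnt2b had like shares, at 16.8% ± 4.36, 16.6% ± 1.998 and 15.02% ± 9.72, which did not differ beyond their spread, followed by Wnt11 at 10.01% ± 2.44. The summed ligand level was 56.1 ± 9.88 normalized counts per kilobase in epithelium and 13 ± 2.37 in stroma, without overlap (39.7 to 71.8 and 9.19 to 14.9).

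The Frizzled receptors changed places between the layers. Fzd10, a receptor of β-catenin-dependent Wnt signals, lies on chromosome 5 (128600844 to 128604093, plus strand). Its median was 12.6 normalized counts in epithelium (8.297 to 15.4), against 0, 1.19, 0.876, 1.49 and 0.941 in the stroma of O1, O2, O3, Y1 and Y3. The layers did not overlap (log2 fold change 3.76, SE 0.42, adjusted p = 2.28e-07, edgeR). Fzd6, a planar polarity receptor that orients hair follicles in skin, had a median of 11.4 in epithelium (8.58 to 16.1) and 0, 1.72, 0.343, 1.54 and 0.941 in stroma. It too was without overlap, with a log2 fold change of 3.74 (SE 0.49, adjusted p = 2.35e-06). Fzd3, its close relative in planar polarity and axon guidance, differed less, at a median of 5.11 in epithelium (3.73 to 7.26) and 2.44, 2.45, 2.97, 1.95 and 3.18 in stroma, with a log2 fold change of 1.06 (SE 0.26, adjusted p = 0.00149). Fzd1, a broadly expressed receptor, had a median of 12.7 in epithelium (10.8 to 16.3) and 1.10, 10.6, 11.4, 3.70 and 9.92 in stroma, where O1 and Y1 lay far below the other 3 mice. Fzd1 passed at a log2 fold change of 0.89 (SE 0.36, adjusted p = 0.0404), a call lost when O1, O2, O3, Y3 or YM4 epithelium or Y1 stroma was left out (0.73 to 0.88, adjusted p 0.0564 to 0.102), with upper quartile normalization (0.81, adjusted p = 0.0547) and in the 5 paired mice without the block (0.97, adjusted p = 0.0846).

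Fzd4, Fzd7 and Fzd9 were the stromal Frizzled genes. Fzd4, the receptor of norrin and of retinal vessel growth, lies on chromosome 7 (89404355 to 89413134, plus strand). It had a median of 3.83 normalized counts in epithelium (2.11 to 6.32) and 31.2, 28.9, 13.1, 29.6 and 50.8 in stroma, without overlap (log2 fold change -2.88, SE 0.27, adjusted p = 1.88e-08, edgeR). Fzd7, a receptor known from stem cells of the gut and from muscle satellite cells, lies on chromosome 1 (59482424 to 59486955, plus strand) and had a median of 9.90 in epithelium (5.81 to 12.1). In stroma it stood at 40.5, 46.1, 25.7, 31.6 and 30.5, again above every epithelial sample, with a log2 fold change of -1.85 (SE 0.17, adjusted p = 1.47e-08). Fzd9, known from bone and from the neuromuscular junction, was near the floor in epithelium (0 to 0.830, median 0.0651) and at 1.16, 2.17, 2.63, 2.57 and 0.981 in stroma, with a log2 fold change of -4.26 (SE 0.68, adjusted p = 2.005e-05). The 0.830 of YF5 is under the floor of that library, 1.24, which lies above O1 and Y3 stroma. Whether the layers overlap in Fzd9 was therefore not resolved. The summed skeletal muscle, fibroblast, endothelial, adipocyte, and glial and neuronal markers were likewise higher in the stroma of each of the 5 paired mice. The smooth muscle sum of Y1 and the immune sum of O1 were higher in epithelium. The part of these cell types in the differences was not tested.

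Both co-receptors were higher in stroma, by smaller steps. Lrp6 had a median of 34.8 normalized counts in epithelium (25.3 to 43.1) and 66.4, 70.7, 57.6, 80.3 and 66.4 in stroma, without overlap (log2 fold change -0.94, SE 0.15, adjusted p = 1.86e-05, edgeR). Lrp5 ran from 44.6 to 70.6 in epithelium and from 66.7 to 105 in stroma, with a log2 fold change of -0.65 (SE 0.16, adjusted p = 0.00186, and 0.0642 without a filter on low counts). Per kilobase, Lrp5 had the highest mean of the receptors in epithelium, at 5.70 ± 0.999 (SD, n = 9), and in stroma Lrp5 (8.97 ± 1.72, n = 5) and Fzd7 (7.70 ± 1.82) could not be ranked. Fzd2, Fzd5 and Fzd8 did not pass. Fzd5, a receptor of Paneth cell maturation in the gut, came closest at a log2 fold change of 0.96 (SE 0.41, adjusted p = 0.0520), and 17.8% of its exon length is shared with a transcript of the other strand. Without O1 stroma it passed (1.51, adjusted p = 0.00203). As shares of the summed Frizzled level per kilobase, Fzd10 gave 25.1% ± 2.81, Fzd1 21.7% ± 1.54, Fzd6 16.8% ± 2.64 and Fzd7 14.1% ± 1.82 in epithelium, while Fzd7 gave 44.9% ± 8.71 and Fzd4 26.2% ± 9.67 in stroma. The summed Frizzled level itself, 14.9 ± 1.82 per kilobase in epithelium (11.8 to 17.5) and 17.2 ± 2.65 in stroma (14.4 to 20.6), overlapped between the layers.

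**Figure D3:**
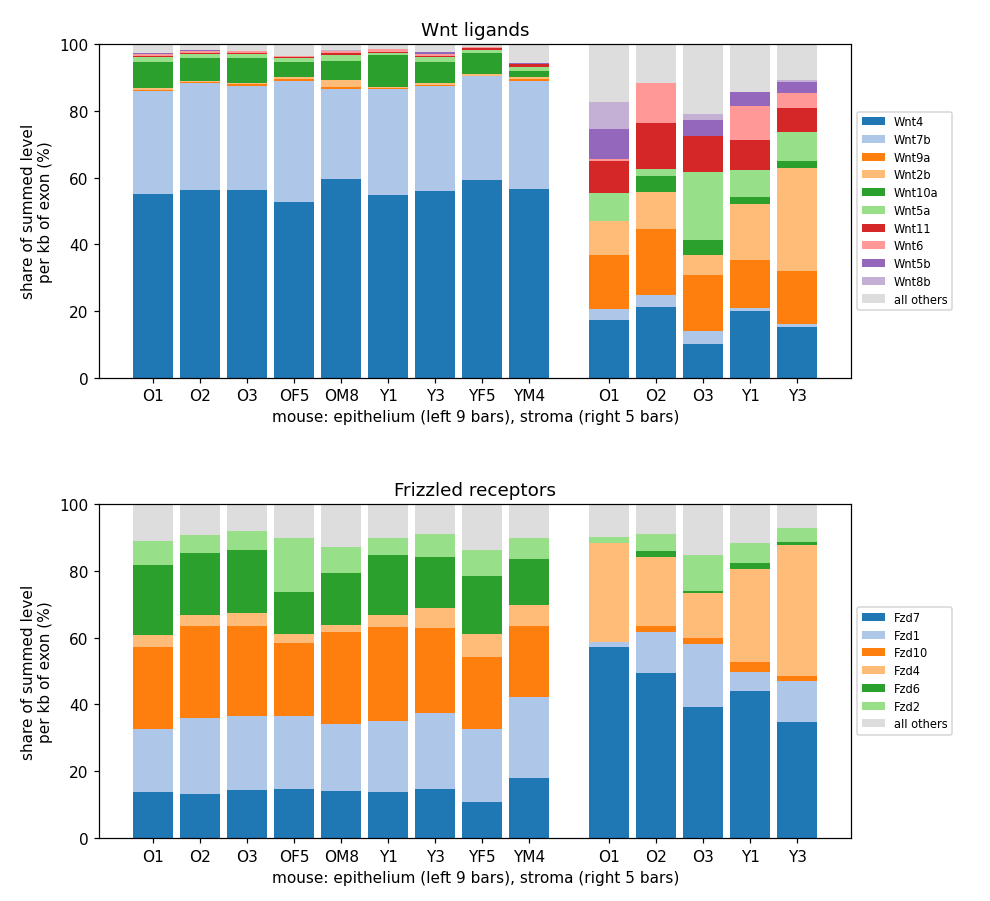
Share of each ligand (top) and each Frizzled receptor (bottom) in the summed level per kilobase of exon, in percent, with 1 bar per sample and members that reach 8% in any sample drawn on their own. The 9 epithelial bars are alike, with Wnt4 and Wnt7b at 85.9% to 90.5% of the ligands, and the 5 stromal bars vary more between mice.

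To show the regions in front of such genes, the RefSeq promoter windows (GRCm38.p6, 250 bases before to 50 after the start) of 1 ligand and 1 receptor from each layer are printed here, 5′ to 3′ on the strand of the gene. They are Wnt4 (chr4:137277385-137277684, plus strand) and Fzd1 (chr5:4758167-4758466, minus strand), higher in epithelium, and Wnt11 (chr7:98834862-98835161, plus strand) and Fzd4 (chr7:89404116-89404415, plus strand), higher in stroma. These are examples and do not stand for the set. Fzd1 lost its call in 10 of 23 alternatives, and Wnt11 has 2 windows, of which 1 is printed. Capitals mark the core of the TCF/LEF motif, CTTTGA, or its reverse complement TCAAAG.
Wnt4: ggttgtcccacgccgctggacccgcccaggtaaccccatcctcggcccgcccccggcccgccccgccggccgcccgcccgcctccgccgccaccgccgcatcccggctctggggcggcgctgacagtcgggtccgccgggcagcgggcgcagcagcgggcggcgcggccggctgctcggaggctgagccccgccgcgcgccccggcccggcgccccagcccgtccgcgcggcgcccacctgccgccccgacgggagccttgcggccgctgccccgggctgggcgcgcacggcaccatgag
Fzd1: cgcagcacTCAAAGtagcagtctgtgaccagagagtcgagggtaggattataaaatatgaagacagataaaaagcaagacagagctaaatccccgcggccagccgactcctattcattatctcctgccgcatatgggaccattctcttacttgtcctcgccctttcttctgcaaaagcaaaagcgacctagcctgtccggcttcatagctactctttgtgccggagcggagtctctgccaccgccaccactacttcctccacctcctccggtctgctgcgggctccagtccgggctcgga
Wnt11: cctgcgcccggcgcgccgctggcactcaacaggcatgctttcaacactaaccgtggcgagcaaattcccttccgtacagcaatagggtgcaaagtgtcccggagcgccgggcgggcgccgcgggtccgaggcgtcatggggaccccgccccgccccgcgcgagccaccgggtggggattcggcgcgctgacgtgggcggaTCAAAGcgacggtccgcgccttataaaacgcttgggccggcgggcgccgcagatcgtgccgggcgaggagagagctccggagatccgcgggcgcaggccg
Fzd4: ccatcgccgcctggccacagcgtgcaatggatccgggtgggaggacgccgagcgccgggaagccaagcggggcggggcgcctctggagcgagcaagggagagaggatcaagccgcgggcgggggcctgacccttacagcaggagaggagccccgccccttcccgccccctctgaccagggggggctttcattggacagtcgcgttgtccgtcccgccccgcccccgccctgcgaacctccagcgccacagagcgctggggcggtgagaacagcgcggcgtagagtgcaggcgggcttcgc
Wnt11 holds the core 50 bases before its start and Fzd1 242 bases before, and the windows of Wnt4 and Fzd4 do not hold these letters. A window was found for 38 of the 57 genes, 47 windows in all, and the core stood in 5 of them (Dkk1, Fzd1, Lef1, Wnt5b and Wnt11), which is 10.6% against 16% of all 32851 windows. It stood in 1 of 9 windows of genes higher in epithelium and in 3 of 18 of genes higher in stroma. The median GC content was 66.7% in the windows of Wnt genes and 52.7% in all windows. A match of these letters is a description of the window and not a binding site.

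Of the 7 R-spondins and LGR receptors, 1 was higher in epithelium and 3 in stroma, 1 did not pass and Rspo2 and Rspo4 were too low to be tested. Lgr4, the most widely expressed of the R-spondin receptors, had a median of 16.8 normalized counts in epithelium (8.297 to 21.03) and 9.58, 9.53, 7.62, 6.73 and 7.45 in stroma (log2 fold change 1.05, SE 0.20, adjusted p = 1.91e-04, edgeR). Only the epithelium of YF5 fell into the stromal range. Rspo1, a secreted R-spondin of gonad and gut mesenchyme, had a median of 1.14 in epithelium (0.345 to 5.49) and 1.34, 2.004, 2.09, 7.29 and 10.2 in stroma, where the 2 young mice stood apart from the 3 aged ones. Rspo1 differed by -1.63 on the log2 scale (SE 0.52, adjusted p = 0.0121) and -1.34 with the mouse as a block (adjusted p = 0.100), and it did not pass without Y3 stroma (-1.12, adjusted p = 0.0945). Lgr6, a marker of stem cells in skin, had a median of 0.423 in epithelium (0 to 2.06) and 0.290, 1.06, 2.25, 3.24 and 2.0 in stroma. The log2 fold change of Lgr6 was -1.85 (SE 0.67, adjusted p = 0.0236), -1.94 with the mouse as a block (adjusted p = 0.106) and -1.496 without Y1 stroma (adjusted p = 0.0933).

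Rspo3, the main R-spondin of the gut stroma, rested on 1 sample, at 1.57, 7.12, 0.381, 0.925 and 1.77 normalized counts in stroma and a median of 0.935 in epithelium (0 to 1.38). The log2 fold change of -1.59 (SE 0.64, adjusted p = 0.0411, edgeR) became -0.59 without O2 stroma (adjusted p = 0.472) and -0.72 with the mouse as a block (adjusted p = 0.399). The call was also lost without O2, OF5, OM8, Y1 or YF5 epithelium. Lgr5, the stem cell marker of the gut crypt, had a median of 0.573 in epithelium (0 to 1.41) and 1.69 in stroma (0.286 to 2.09) and did not pass (log2 fold change -1.43, SE 0.62, adjusted p = 0.0564). It passed when O1 or OM8 epithelium or O2 stroma was left out (-1.70 to -1.62, adjusted p 0.0212 to 0.0496) and by DESeq2 (-1.52, adjusted p = 0.0155).

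Among the 10 secreted inhibitors, 2 were higher in epithelium, 1 was higher in stroma, 3 did not pass and 4 were too low to be tested. Sfrp5, a decoy receptor known as a product of fat cells, lies on chromosome 19 (42197971 to 42202252, minus strand). It had a median of 0.121 normalized counts in epithelium (0 to 1.01) and 1.97, 6.71, 11.3, 11.5 and 11.8 in stroma, without overlap. For Sfrp5 the log2 fold change was -4.92 (SE 0.58, adjusted p = 4.07e-07, edgeR) and -6.01 without the epithelium of O1, the sample in which the summed glial and neuronal markers were also highest, at 8.42 against 0.469 to 2.07 in the other 8. The adipocyte markers were 85.9 to 409 in stroma and at most 0.752 in epithelium, and their part was not tested. Dkk2, an LRP antagonist of eye and hair follicle mesenchyme, was higher in epithelium, at a median of 10.3 (1.66 to 19.1) against 1.05, 4.46, 5.45, 0.565 and 2.35 in stroma (log2 fold change 2.06, SE 0.50, adjusted p = 0.00195), with YF5 inside the stromal range.

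Sfrp2, a decoy receptor best known from fibroblasts, was higher in epithelium by a small step, at a median of 3.09 normalized counts (2.40 to 7.30) against 2.90, 2.66, 1.64, 2.05 and 2.47 in stroma. The log2 fold change was 0.89 (SE 0.35, adjusted p = 0.0367, edgeR) and 0.73 with the mouse as a block (adjusted p = 0.184). It lost the call without O2, O3, OM8 or YM4 epithelium or without O3, Y1 or Y3 stroma (0.73 to 0.88, adjusted p 0.0547 to 0.0995) and with upper quartile normalization (0.79, adjusted p = 0.0649), and 16.1% of its exon length is shared with an antisense gene. Sfrp1, Sfrp4 and Dkk3 did not pass, with log2 fold changes of 0.20 (SE 0.35), -0.17 (SE 0.45) and 0.08 (SE 0.30). Each was well above the floor in both layers, Sfrp1 at a median of 23.2 in epithelium and 16.7 in stroma and Dkk3 at 12.1 and 10.7, and the 95% interval of the difference ran from -0.54 to 0.94 for Sfrp1 and from -0.54 to 0.70 for Dkk3. Per kilobase, Sfrp1 (4.94 ± 1.83) and Dkk3 (3.58 ± 0.842) had the highest means among the secreted inhibitors of the epithelium and overlapped in their spread, and Sfrp5 (4.56 ± 2.26) and Sfrp1 (4.38 ± 2.98) could not be ranked in stroma.

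The feedback inhibitors were divided between the layers, although Axin2, Nkd1, Nkd2, Rnf43 and Znrf3 are all known as targets of the pathway they dampen. Axin2, a scaffold of the destruction complex and a widely used readout of β-catenin signaling, was higher in stroma, with a median of 4.75 normalized counts in epithelium (4.12 to 9.15) and 23.4, 13.05, 11.2, 13.1 and 10.4 in stroma. The layers did not overlap (log2 fold change -1.39, SE 0.24, adjusted p = 4.59e-05, edgeR). Rnf43, one of the ligases that remove Frizzled, was higher in epithelium, with a median of 6.52 (3.10 to 7.46) and 0.697, 2.25, 3.05, 1.34 and 2.08 in stroma. It was without overlap (log2 fold change 1.65, SE 0.33, adjusted p = 2.55e-04), although YM4 at 3.10 lay just above O3 stroma at 3.05. Znrf3, its partner ligase, was also higher in epithelium, with a median of 12.01 (8.297 to 14.5) and 7.14, 7.57, 5.67, 5.50 and 6.28 in stroma (log2 fold change 0.88, SE 0.18, adjusted p = 3.08e-04). Nkd1 and Nkd2, which bind Dishevelled, did not pass, and Nkd1 stood at 32.1 in O2 stroma against 2.90 to 9.53 in the stroma of the other 4 mice.

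Of the 4 TCF/LEF factors, Lef1 alone passed. Lef1, a factor of hair follicles and lymphocytes, was low in both layers, with a median of 0.0825 normalized counts in epithelium (0 to 0.686) and 1.86, 0.491, 0.609, 0.925 and 0.588 in stroma (log2 fold change -2.24, SE 0.69, adjusted p = 0.00933, edgeR, and 0.107 without a filter on low counts). The epithelium of OF5, where 0.686 is under the 3-count floor of that library, overlapped with the stroma. Tcf7, Tcf7l1 and Tcf7l2 had log2 fold changes of -0.92 (SE 0.53), 0.08 (SE 0.33) and 0.24 (SE 0.23). Tcf7l1 and Tcf7l2, the factors most often described in epithelial progenitors, were at a median of 6.95 and 8.58 in epithelium and 7.26 and 7.44 in stroma. Tcf7, which is also a T cell gene, was highest in O3 stroma at 6.47 against 0.450 to 2.16 in the stroma of the other mice. The summed immune markers were also highest there, at 72.2 against 5.75 to 25.9, but Cd3e of that list was too low to be tested between the layers. The fibroblast (1026) and endothelial (102) sums were highest in O3 stroma too, and those of the other marker lists in other stromal samples. Their part in the Tcf7 value was not tested. Tcf7 passed when O2 stroma was left out (-1.19, adjusted p = 0.0488).

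The 13 genes too low to be tested were Wnt1, Wnt2, Wnt3, Wnt7a, Wnt8a, Wnt8b, Wnt9b, Dkk1, Dkk4, Notum, Wif1, Rspo2 and Rspo4. None had more than 16 counts in an epithelial sample or more than 46 in a stromal sample. All 13 had more than 3 counts in at least 1 stromal sample and 8 had more than 3 counts in at least 1 epithelial sample. Counts in stroma were uneven, as for the LRP antagonist Dkk1, which had 1.80 normalized counts in O1 stroma, 0.431 in Y3 stroma and none in the other 3.

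The other genes of the pathway, 81 in 8 lists, included 50 that differed between the layers among 72 tested (69.4%, against 56.2% of all genes). Of the 72, 27 were higher in epithelium (37.5%, against 26.1% of all genes) and 23 in stroma (31.9%, against 30.1%), and the median log2 fold change was -0.12. The counts of each list below are read against the same shares of all genes. Among 7 genes of ligand secretion and transport, Porcn, which attaches the lipid to Wnt proteins, was higher in epithelium (log2 fold change 1.59, SE 0.49). The other 6 were higher in stroma, led by the heparan sulfatases Sulf1 (-2.55, SE 0.26) and Sulf2 (-1.66, SE 0.23). Porcn did not pass in the 5 paired mice analysed without the block (1.10, adjusted p = 0.0921, edgeR). Of 8 tested genes for other receptors, 1 was higher in epithelium and 2 in stroma. The gene higher in epithelium was Ptk7, a planar polarity co-receptor (2.80, SE 0.58). Those higher in stroma were Musk, a receptor kinase of the neuromuscular junction (-5.33, SE 0.30), and Tspan12, a partner of Fzd4 (-4.01, SE 0.51).

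Of the 6 tested genes among other inhibitors, 4 were higher in epithelium and 2 in stroma, where 26.1% and 30.1% of all genes were. Dkkl1 (log2 fold change 3.86, SE 0.43) and the DKK co-receptor Kremen2 (2.51, SE 0.70) stood on the epithelial side, and Sostdc1 (-2.52, SE 0.73, and -2.09 with the mouse as a block, adjusted p = 0.125, edgeR) and Kremen1 (-1.09, SE 0.14) on the stromal side. The next list held 14 genes of the destruction complex and of the CK1 kinase family, not all of which act in that complex. Of these, 6 were higher in epithelium, among them Csnk1g3 (1.06, SE 0.30) and Csnk1a1 (0.90, SE 0.15). Another 4 were higher in stroma, among them Btrc (-1.18, SE 0.31) and the scaffold Apc (-1.03, SE 0.14). Of the 4 transducers, Ctnnb1, which encodes β-catenin, was higher in epithelium (0.93, SE 0.21) and Dvl1, a Dishevelled gene, in stroma (-1.20, SE 0.17).

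Of 11 tested nuclear partners, 2 were higher in epithelium (18.2%) and 5 in stroma (45.5%), and of the planar polarity genes 53.8% and 15.4%. Across all genes these shares were 26.1% and 30.1%. Ctnnbip1, an inhibitor that keeps β-catenin from TCF factors (log2 fold change 3.65, SE 0.26), and the co-repressor Tle3 (1.86, SE 0.22) were higher in epithelium, and Pygo1, a co-activator (-3.20, SE 0.42), and Tle5 (-1.82, SE 0.16) in stroma. Of 13 planar polarity genes, 7 were higher in epithelium, led by the cadherins Celsr1 (4.00, SE 0.31) and Celsr2 (3.96, SE 0.20), and 2 in stroma, Celsr3 (-2.23, SE 0.78, and -1.40 with the mouse as a block, adjusted p = 0.320, edgeR) and Prickle1 (-1.93, SE 0.28). Of 9 tested genes often used as targets of the pathway, 5 were higher in epithelium, led by Ephb3 (3.51, SE 0.46) and Cd44 (2.71, SE 0.21). Myc, another known target, was among those higher in epithelium (2.30, SE 0.26), whereas Axin2 was higher in stroma. Of 12 genes that the study named for Wnt signaling in its single-cell data, 11 were tested, of which 2 were higher in epithelium and 3 in stroma, and that list was chosen on the study's own samples.

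Aged and young mice were compared within each layer to ask which Wnt genes follow age. In epithelium, 40 Wnt genes were tested and none passed, beside 2 of 15107 genes in all, which is 0.0132%, or 0.00662% in each direction (edgeR, 5 aged and 4 young, with a covariate for the 2 forms of mouse code). At an unadjusted p-value under 0.05 there was 1 Wnt gene (3 by DESeq2, which also called no Wnt gene after adjustment), against 3.36% of all genes. The log2 fold change, positive where aged is higher, was above 0 in 28 of the 40 with a median of 0.13. Over all genes it was above 0 in 7476 of 15107, with a median of -0.003. In stroma, 52 Wnt genes were tested with 3 aged and 2 young mice and none passed, as none of 21323 genes did (0.0%). Unadjusted p-values under 0.05 were found for 4 Wnt genes (5 by DESeq2, none after adjustment) and for 3.64% of all genes. The stromal log2 fold change was above 0 in 29 of the 52 Wnt genes and in 10476 of the 21323 genes, with medians of 0.16 and -0.01. Among the other pathway genes, 1 of 69 in epithelium and 2 of 77 in stroma had an unadjusted p-value under 0.05.

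The age estimates for the abundant epithelial ligands and for Fzd10 were small. Wnt4 had a log2 fold change of -0.10 (95% interval -0.38 to 0.17), Wnt7b of -0.09 (-0.41 to 0.23), Fzd10 of 0.21 (-0.12 to 0.53) in epithelium, so a change of 1 on the log2 scale lies outside each of these 3 intervals. It lies inside those of other genes higher in epithelium, namely Wnt16 (0.67, -0.15 to 1.496), Sfrp2 (0.68, -0.13 to 1.496) and Dkk2 (0.09, -1.12 to 1.29). The co-receptor gene Lrp5 had 0.05 (-0.23 to 0.33). In stroma the intervals were wider, running from -0.40 to 0.93 for Fzd7, from -0.70 to 0.48 for Lrp5, from -1.61 to 0.14 for Fzd4 and from -2.18 to 0.59 for Sfrp5. Axin2 had log2 fold changes of 0.34 in epithelium (-0.17 to 0.85) and 0.42 in stroma (-0.46 to 1.31).

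**Figure D4:**
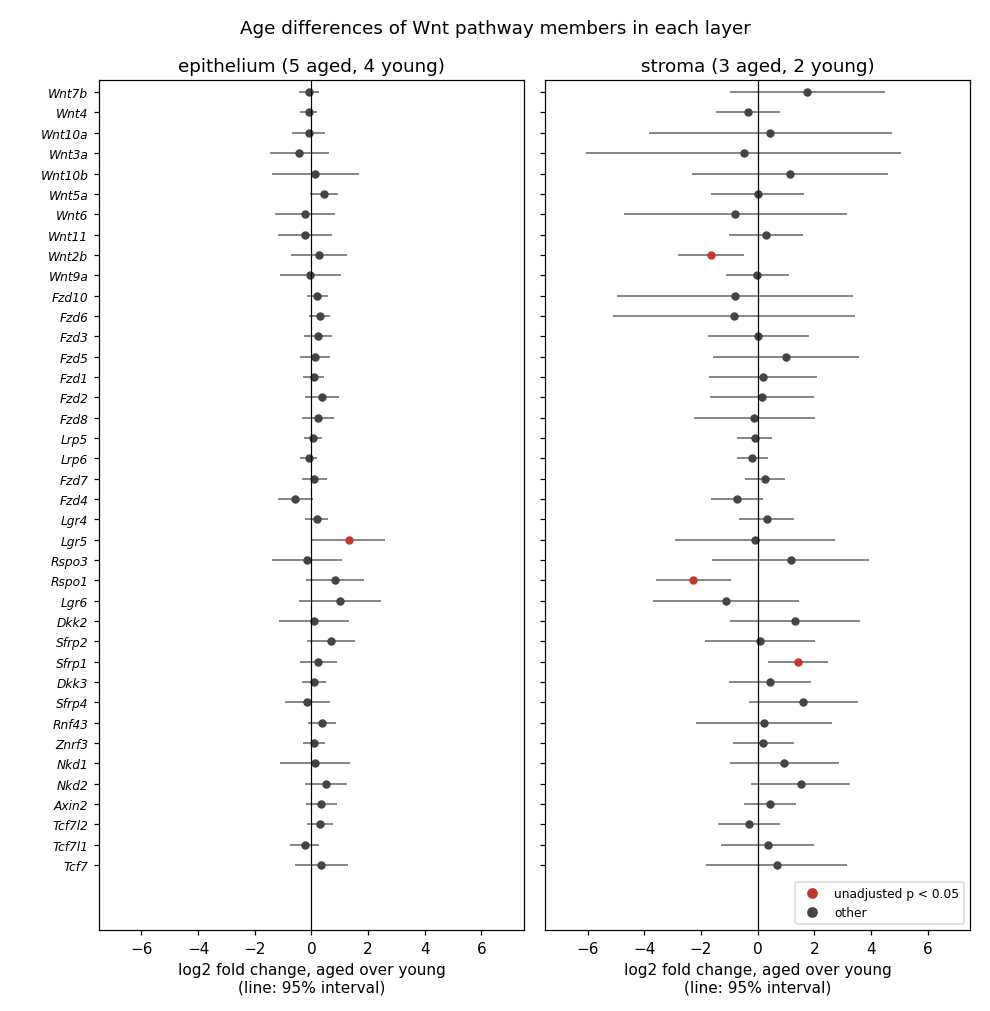
Log2 fold change of aged over young mice for the 39 Wnt genes tested in both layers, with the 95% interval as a line, in epithelium (left) and stroma (right). Red points have an unadjusted p-value under 0.05 (1 in epithelium, 3 in stroma) and none passed after adjustment.

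The 4 Wnt genes with the smallest p-values by age in epithelium were Lgr5, Fzd4, Wnt5a and Fzd6. Lgr5 stood at 0.926, 0.573, 0.577, 0.686 and 1.41 normalized counts in the epithelium of O1, O2, O3, OF5 and OM8, and at 0.176, 0.521, 0 and 0 in Y1, Y3, YF5 and YM4. Every aged sample lay above every young one, as in 0.887% of all genes tested, and in no Wnt gene was every young sample above every aged one (0.404% of all genes), but the zeros of YF5 and YM4 allow up to 1.24 and 1.03 normalized counts. Its log2 fold change was 1.315 (SE 0.60, unadjusted p = 0.0420, adjusted p = 0.999, edgeR), and 0.97 in the 5 paired mice (adjusted p = 1.0). With 1 sample left out it ran from 1.004 to 2.40 in the 6 fits that tested it, the highest being the value without Y3. In the other omissions Lgr5 was too low to be tested. Fzd4 had 3.70, 3.83, 4.41, 2.40 and 2.11 in aged and 3.21, 6.32, 5.39 and 6.204 in young epithelium, which overlap through Y1. Its log2 fold change was -0.57 (SE 0.28, unadjusted p = 0.0542), at -0.27 in the 5 paired mice and -1.33 in the 4 with epithelium only. Wnt5a ran from 5.49 to 7.12 in aged epithelium and was 3.67, 5.57, 3.73 and 4.83 in young (0.44, SE 0.22, unadjusted p = 0.0552). Fzd6 ran from 8.58 to 16.1 in aged and 9.96 to 11.6 in young epithelium (0.29, SE 0.16, unadjusted p = 0.0799), with a value of -0.02 in the 4 mice with epithelium only. The summed fibroblast markers were 279 to 452 in aged and 414 to 630 in young epithelium, with all 6 genes lower in aged and none passing. Of the 6, Col1a1, Col1a2 and Col3a1 had an unadjusted p-value under 0.05 (edgeR). The part of the fibroblast markers in these values was not tested.

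In stroma the smallest p-values were those of Rspo1, Wnt2b, Sfrp1 and Rspo4. Rspo1 stood at 1.34, 2.004 and 2.09 normalized counts in aged stroma (O1, O2 and O3) and at 7.29 and 10.2 in young stroma (Y1 and Y3). Aged stroma was lower by a log2 fold change of -2.27 (SE 0.57, unadjusted p = 0.00272, adjusted p = 1.0, edgeR), and leaving out each sample in turn gave -2.51 to -2.03. Wnt2b stood at 3.95, 6.91 and 3.05 in aged and 10.1 and 18.8 in young stroma (-1.65, SE 0.50, unadjusted p = 0.00833). Sfrp1 went the other way, at 19.2, 40.9 and 16.7 in aged and 7.19 and 11.8 in young stroma (1.42, SE 0.46, unadjusted p = 0.0114). Of the 52 genes tested, every aged sample lay above every young one in 3 and the reverse held in 4, against 6.57% and 14% of all genes tested. Rspo4 had 1 count over the 3 aged and 29 over the 2 young stromal samples, a ratio of young over aged of 43.8. Its exact 95% counting interval, from 7.26 to 1790, covers counting error only and not the spread between mice. The fit over mice gave a log2 fold change of -5.05 (95% interval -10.05 to -0.0454, unadjusted p = 0.0483, edgeR).

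Cell type markers in aged and young stroma are given beside these values, and none passed the test by age. The smooth muscle markers summed to 937, 2042 and 812 normalized counts in O1, O2 and O3 and to 301 and 597 in Y1 and Y3, and the keratinocyte markers to 55.2, 439 and 249 against 77.4 and 48.0. The adipocyte markers were 94.6, 85.9 and 205 in aged and 126 and 409 in young stroma. All 5 smooth muscle and all 9 keratinocyte markers had a positive log2 fold change of aged over young, and 4 and 5 of them had unadjusted p-values under 0.05. The smooth muscle sums did not overlap between the ages, while the keratinocyte sum of O1 lay below that of Y1 and the adipocyte sum of O3 above that of Y1. Their part in the values of Rspo1, Wnt2b and Sfrp1 was not tested.

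The interaction of age and layer asked whether an age difference was larger in one layer, using the 5 mice for which both were sequenced (10 samples). This fit held no term for the mouse, so the layers of a mouse were treated as separate samples. With the mouse as a block, 0 genes passed, and 4 Wnt genes had an unadjusted p-value under 0.05 (edgeR). No Wnt gene of 53 passed, nor any of 22771 genes (0.0%), and 4 of the 53 had an unadjusted p-value under 0.05, against 4.3% of all genes (edgeR). The smallest was that of Wnt7b, at a log2 difference of -1.76 (SE 0.38, unadjusted p = 6.77e-04, adjusted p = 0.550), where a negative value means that the age difference is more positive in stroma. In stroma Wnt7b stood at 1.51, 2.50 and 2.32 for O1, O2 and O3 and at 0.616 and 0.628 for Y1 and Y3. The keratinocyte sums of the same samples were 55.2, 439 and 249 against 77.4 and 48.0, with O1 among the young values. Taken singly, all 9 keratinocyte markers had a positive log2 fold change by age in stroma (median 2.10). In the interaction all 9 were negative, with a median of -2.09, and none passed. The part of these markers in the Wnt7b value was not tested. Rspo1 followed at 2.76 (SE 0.64, unadjusted p = 0.00129, adjusted p = 0.684), with 1.505, 1.60 and 1.36 in the epithelium of O1, O2 and O3 and 0.987 and 1.14 in that of Y1 and Y3. DESeq2 called both (Wnt7b -1.84, adjusted p = 0.0478, and Rspo1 2.69, adjusted p = 0.00772), and the fit without a filter on low counts called Wnt7b (-2.01, adjusted p = 0.00139). Over the other fits the adjusted p-values of Wnt7b ran from 0.0566 to 1.0, and those of Rspo1 from 0.137 to 1.0. Wnt16, with no read in aged stroma and 10 counts over the 2 young stromal samples, had an unadjusted p of 0.00425 in the interaction, and no fold is given. Sfrp1 had -1.36 (SE 0.59, unadjusted p = 0.0408).

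**Figure D5:**
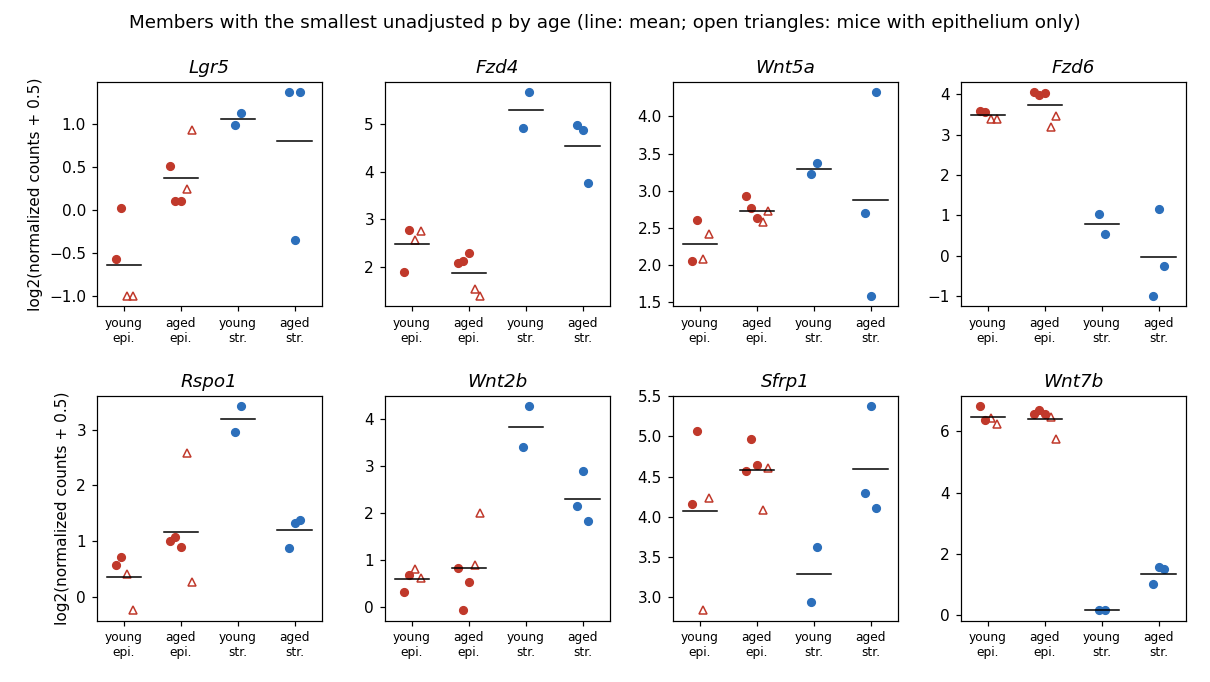
Level of 8 Wnt genes with small unadjusted p-values by age or in the interaction, as log2 of normalized counts plus 0.5, with 1 point per sample and the group mean as a line (red, epithelium; blue, stroma; open triangles, mice with epithelium only). Rspo1 and Wnt2b are lower and Sfrp1 and Wnt7b higher in each of the 3 aged than in each of the 2 young stromal samples, and none of these differences passed after adjustment.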

How the data were processed

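Poly(A)-enriched RNA of 14 peeled esophageal samples had been sequenced. The authors used Rsubread for alignment to GRCm38.p6 and featureCounts for counting, and the deposited values are whole-number counts per gene, not normalized. Settings for strand and for reads matching several genes are not given in the sources used here, and 11 of the 57 members overlap a gene on the opposite strand. Total counts ranged from 8217516 to 21867101, and floors cover counting error only. Replicates of a group differed by more than sampling noise (chi-square per degree of freedom of 9.93 or more). Annotation came from GENCODE M21, which held all 57 members and 53292 of the 55291 symbols. The members and all gene lists were chosen with earlier results of these data known.

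Tests used edgeR 4.0.16 (R 4.3.3; TMM, filterByExpr with a minimum count of 10, robust quasi-likelihood F-test), with Benjamini-Hochberg adjustment over all genes tested and a threshold of 0.05. The study's methods name DESeq2, run here as an alternative (1.42.0). The layer comparison had no covariate. Age was tested in epithelium with the form of the mouse code (OF5, OM8, YF5 and YM4 against the rest) as a covariate, in stroma without one, and as an interaction in the 5 mice whose layers are paired by animal, per the labels. The interaction fit held terms for layer and age and none for the mouse. Deviations of a pair from the group means correlated at r = 0.0517 to 0.122 over 22771 genes. The standard error is the log2 fold change divided by the square root of F. The procedure was tested on simulated data.

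Values by sample are given for up to 4 genes per role and direction that passed between the layers, by size of change where log2 CPM averaged -1 or more, and for the 4 genes with the smallest unadjusted p by age. Up to 2 genes per direction are named from each list of other pathway genes. One gene of these lists is not reported here. Other named genes, such as Wnt3a, Fzd5, Lgr5, Nkd1, Tcf7 and Dkk1, were chosen after their values were seen. Alternatives were DESeq2, upper quartile normalization, library sizes from nuclear protein-coding genes, no filter, 10 counts in every sample, other covariates and subsets, the mouse as a block, and each sample left out.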

Additional observations from a re-analysis of the deposited data

Results flagged for a closer look

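In 31 genes with values by sample, the aged and the young epithelial group were each checked for a sample far from the rest (62 groups in all), by Dixon's test on log2 of normalized counts plus 0.5. It flagged 4 groups, and chance flags about 5% of groups. Sfrp2 was high in young epithelium YM4 at 6.55 normalized counts, against 2.43 to 2.83 in the other 3. Sfrp5 was high in aged epithelium O1 at 1.01, against 0 to 0.165 in the other 4, and the summed glial and neuronal markers were also highest in that sample. Fzd9 was high in young epithelium YF5 at 0.830, against 0 to 0.0705, but this is 2 counts and under the 3-count floor of the library. Wnt7b was low in aged epithelium OM8 at 52.8, against 88.8 to 103 in the other 4.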

How the results depend on the processing

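Of the 29 Wnt genes called between the layers, 20 kept the call in each of the 23 alternatives in which they could be fitted, 9 lost it in at least 1 and none changed direction. Of the 15 not called, 5 were called in at least 1. Leaving out each sample gave 11 to 15 Wnt genes higher in epithelium and 13 to 18 higher in stroma, and 8807 to 10093 genes in all against 9443. Asking for 10 counts in every sample left 14 Wnt genes, of which 4 were higher in epithelium and 4 in stroma, and 4315 genes called in all.

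In the 5 paired mice without a replicate block, Fzd1 (0.97, adjusted p = 0.0846), Rspo3 (-1.29, 0.123), Sfrp2 (0.87, 0.0692), Wnt5a (-0.71, 0.174) and Wnt5b (-1.43, 0.113) lost the call. Adding the mouse as a replicate block in these mice ended the calls of Lgr6 and Rspo1 and made those of Wnt3a and Fzd1 (1.28, adjusted p = 0.0332), and changed no other call of a Wnt gene. Under the block Nkd1 (0.27), Sfrp4 (0.39) and Wnt6 (0.0049) turned positive, none passing. Other turns were in genes not called: Dkk3 (-0.0159) and Tcf7l1 (-0.0254) with upper quartile normalization, and Dkk3 (-0.23), Sfrp1 (-0.10), Tcf7l1 (-0.24) and Tcf7l2 (-0.0664) with 10 counts in every sample. Leaving out 1 sample gave -0.14 to 0.52 for Dkk3, -0.0169 to 0.48 for Fzd2, -0.0671 to 0.49 for Fzd8, -0.56 to 0.57 for Nkd1, -0.0001 to 0.68 for Sfrp1, -0.42 to 0.54 for Sfrp4 and -0.17 to 0.35 for Tcf7l1. The causes were not tested. Without a filter on low counts Lef1 (-2.02, adjusted p = 0.107) and Lrp5 (-0.44, adjusted p = 0.0642) did not pass.

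By age, no alternative called a Wnt gene within a layer. Genes called in epithelium numbered 2, against 28 by DESeq2, 36 without a filter, 0 without the covariate, 4 in the 5 paired mice, 1 in the 4 with epithelium only and 0 to 3 with 1 sample left out (0 without Y1, 1 without O1, 3 without OM8, Y3 or YM4). Fzd6 turned to -0.0245 in those 4 mice. In stroma there were 0, against 2 by DESeq2, 26 without a filter and 0 to 13 with 1 sample left out (13 without Y1, 7 without Y3). In the interaction there were 0, against 62 by DESeq2 (1 Wnt gene in each direction), 98 without a filter (1 Wnt gene, Wnt7b, negative), 13 in all 14 samples and 0 to 32 with 1 sample left out (32 without O1 stroma, 24 without O2 stroma, 1 without O3 stroma). With 3 against 2 mice, the stromal 95% intervals of Wnt4 and Fzd4 include differences over 1 on the log2 scale, and levels under about 1 normalized count could not be compared in the 4 shallow libraries.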
